A study of Homo sapiens with 3 samples.

Results

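Of the genes that the transcription factor p53 is known to switch on, 9 were followed: CDKN1A, GADD45A, BTG2, MDM2, TP53INP1, SESN1, RRM2B, ZMAT3 and FAS. They were chosen by name, as every locus of the deposited tables whose gene name is one of these symbols, and all 9 were found among 55827 names measured in every library. Each group was 1 library of PLC, an established cell line from a human liver cancer, and in all 3 groups RNA was taken 48 hours after a virus brought in a short hairpin RNA. The shDIS3L2 group was depleted of DIS3L2, an enzyme that digests RNA tagged with terminal uridines. The shHNRNPU group was depleted of hnRNP U, a protein that binds RNA in the nucleus and is encoded by HNRNPU. The control group carried a non-targeting hairpin. The number of hairpins per target is not stated. The series title names a role of DIS3L2 in liver cancer through splicing that depends on hnRNP U. The sources used here do not state the p53 status of the cells.

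The protein p53 is activated by DNA damage and other stress and binds DNA at paired half-sites near its target genes. Its best known outputs are a halt in the cell cycle, DNA repair, feedback on p53 itself through the ubiquitin ligase MDM2, and, when stress persists, cell death. In hepatocytes the same pathway limits the division of damaged cells, and liver cancers often lose it. Several of the target genes are also induced by other stress pathways without p53.

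The promoters of 3 members are shown as examples, picked after the calls. CDKN1A and BTG2 were called higher in a knockdown, and the bounds of MDM2 overlapped in every pair of libraries. The bounds of MDM2 were wide, so it was not shown to be unchanged. The sequences are from RefSeq (GRCh38.p14), each 250 bases before to 50 after a transcript start, 5′ to 3′ on the plus strand. The MDM2 window is the one at the internal start, since MDM2 has a pair of well known promoters. The capitals in the CDKN1A and BTG2 windows mark GGGCGG, searched on both strands and so also written CCGCCC, where overlapping matches run together. The capitals in the MDM2 window mark a p53 site.
CDKN1A (chr6:36678464-36678763): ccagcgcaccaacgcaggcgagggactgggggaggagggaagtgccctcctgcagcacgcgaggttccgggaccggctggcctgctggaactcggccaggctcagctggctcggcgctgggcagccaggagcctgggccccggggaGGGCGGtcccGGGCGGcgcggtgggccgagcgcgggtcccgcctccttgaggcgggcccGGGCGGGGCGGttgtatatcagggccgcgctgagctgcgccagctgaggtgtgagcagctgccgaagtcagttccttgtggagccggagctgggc
BTG2 (chr1:203305269-203305568): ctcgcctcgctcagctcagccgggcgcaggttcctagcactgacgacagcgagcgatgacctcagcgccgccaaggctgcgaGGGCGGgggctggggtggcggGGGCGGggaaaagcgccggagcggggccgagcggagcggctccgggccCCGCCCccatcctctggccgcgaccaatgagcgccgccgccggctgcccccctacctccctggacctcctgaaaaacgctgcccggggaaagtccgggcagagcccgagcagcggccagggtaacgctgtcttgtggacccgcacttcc
MDM2 (chr12:68808767-68809066): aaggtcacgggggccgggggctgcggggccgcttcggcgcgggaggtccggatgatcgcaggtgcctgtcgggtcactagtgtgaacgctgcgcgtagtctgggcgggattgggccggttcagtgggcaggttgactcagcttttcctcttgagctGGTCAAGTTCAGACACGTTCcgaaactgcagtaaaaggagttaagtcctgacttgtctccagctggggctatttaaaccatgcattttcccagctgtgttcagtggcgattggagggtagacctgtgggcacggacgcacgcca
A p53 site was taken as 2 half-sites of 10 bases, with the C and the G of each core kept, at most 1 mismatch in a half-site, at most 2 in all and at most 1 base between them. The MDM2 window holds 1 such site, from base -94 to base -75 counted from the start, with 2 mismatches. Of all 35116 RefSeq windows of this length, 0.325% hold such a site. RefSeq windows were matched for 6 of the 9 members, 14 windows in all, and the 2 of them with a p53 site are both overlapping windows of the internal MDM2 start. GADD45A, TP53INP1 and RRM2B were not in that table. GGGCGG was found in 13 of the 14 windows and in 45.0% of all windows. It occurs 4 times in the CDKN1A window and 3 times in the BTG2 window. A match in letters describes the sequence only. A window without one can still hold a p53 site that departs further from the pattern, and says nothing of p53 sites elsewhere in a gene.

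Levels are the deposited FPKM, which divide the fragments of a gene by its transcript length and by the fragments mapped in the library. A range in parentheses after an FPKM gives its deposited bounds, which cover the estimate within 1 library and not the spread between cultures. Calls needed a log2 ratio of FPKM plus 1 of at least 1 in size, either way, together with deposited bounds that were apart. A fold is the ratio of the FPKM themselves, and its range combines the bounds of both libraries on the log scale. With 1 library per group there is no replicate check and no test.

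The labels were first checked on the targeted genes. DIS3L2 stood at 3.23 FPKM (2.31 to 4.15) in shDIS3L2 and 11.2 FPKM (10.04 to 12.4) in shHNRNPU, against 7.61 FPKM (6.70 to 8.53) in control. HNRNPU, at a locus merged with its antisense gene, stood at 232 FPKM in shDIS3L2 and 33.5 FPKM in shHNRNPU, against 178 FPKM in control. Depth, estimated from single-exon genes, was 18.4 M fragments in shDIS3L2, 20.05 M in shHNRNPU and 22.98 M in control. Hepatocyte markers were present, 10 to 11 of 11 at 1 FPKM or more, and their summed level was 6810 FPKM in shDIS3L2 and 12037 FPKM in shHNRNPU, against 17715 FPKM in control. SERPINA1 alone made up 2865 FPKM of that sum in shDIS3L2 and 6710 FPKM in shHNRNPU, against 11439 FPKM in control. Of the 11 markers, 1 was called higher and 5 lower in shDIS3L2, and 0 higher and 3 lower in shHNRNPU. Over all loci 8.95% were higher and 7.58% lower in shDIS3L2, and 8.32% and 7.46% in shHNRNPU. Of 6 fibroblast markers, 3 measured endothelial markers and 3 erythroid markers, 0 reached 1 FPKM in any library. Of 5 leukocyte markers CD68 alone did, at a locus merged with EIF4A1, and CD3E was listed at 0 throughout. The part of the lower summed hepatocyte level in the results was not tested.

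In shDIS3L2 cells 3 of the 9 p53 targets, CDKN1A, GADD45A and BTG2, were called higher than in control and 0 lower. Of all 11787 loci with a mean FPKM of at least 1, 8.95% were called higher and 7.58% lower in this comparison, 16.5% in all. In shHNRNPU cells 1 of 9 was called higher, BTG2, and 0 lower, where 8.32% of loci were called higher and 7.46% lower, 15.8% in all, so this count is near the background. The median log2 ratio of all 9 members was 0.39 in shDIS3L2 and 0.17 in shHNRNPU, against medians over all 11787 loci of 0.09 and 0.12. These sets are unlike, since the 9 include ZMAT3 and FAS, whose mean FPKM was under the minimum of 1. Among the other 7, the middle ratio was that of SESN1, 0.67 in shDIS3L2 and 0.49 in shHNRNPU. Both comparisons share the control library. Median-of-ratios rescaling takes up the shift of the medians over all loci. It turned the background to 6.21% higher and 9.45% lower in shHNRNPU, and left the calls of the 9 members as they were.

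**Figure D1:**
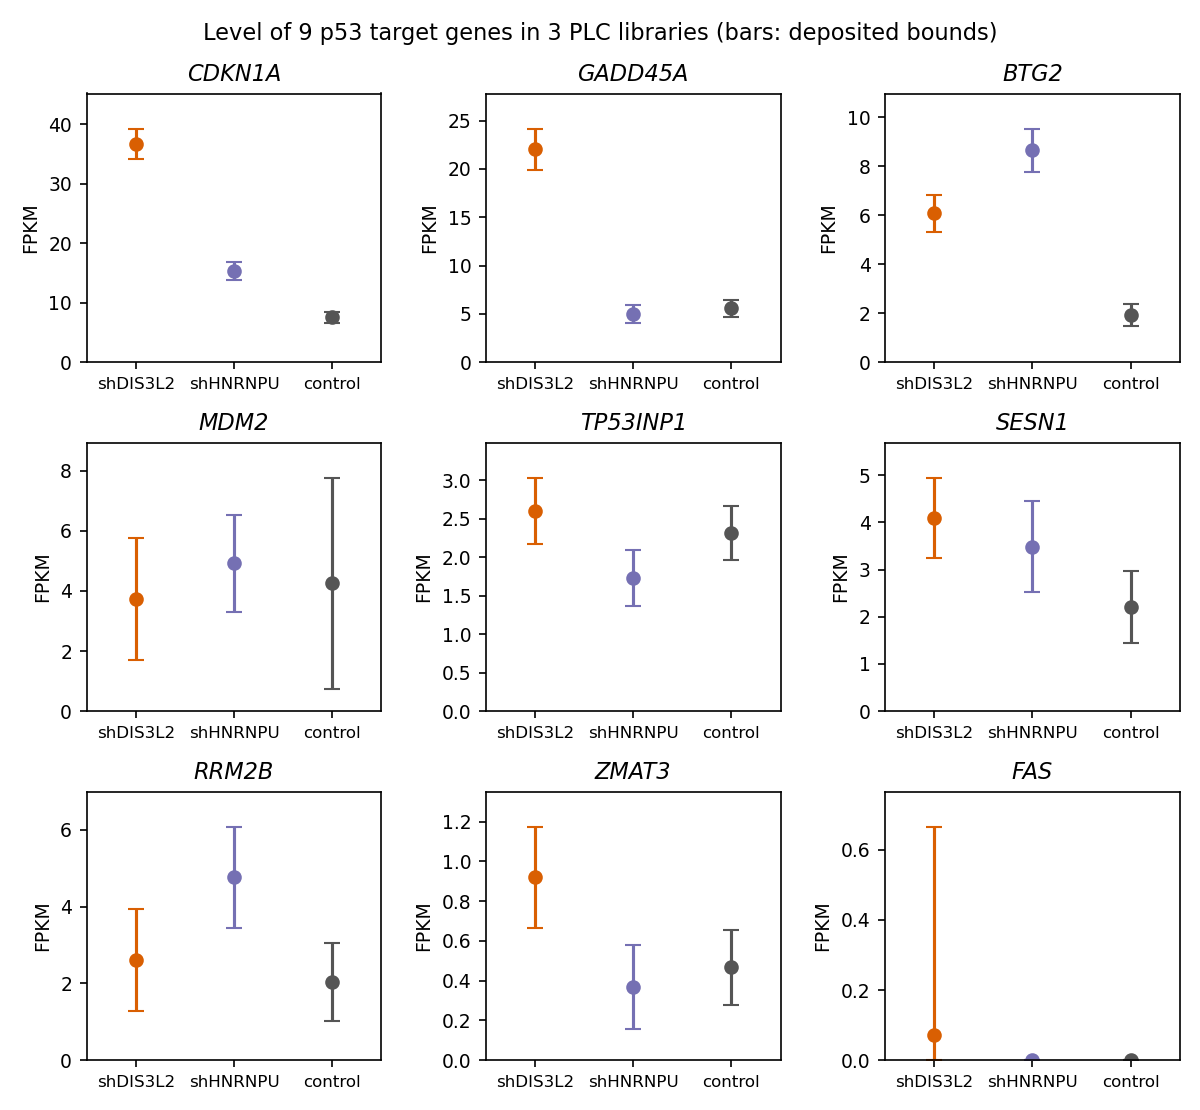
FPKM (vertical axis, from 0, scaled per gene) of the 9 genes in the shDIS3L2, shHNRNPU and control libraries, 1 library each. Points are the deposited FPKM and bars the deposited bounds. CDKN1A separates into 3 levels (36.7, 15.4 and 7.53 FPKM), GADD45A is high in shDIS3L2 alone (22.0 FPKM), and BTG2 is lowest in control (1.93 FPKM).

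CDKN1A encodes p21, which binds and inhibits cyclin-dependent kinases and is the main effector of p53 in arrest at the G1 stage. The gene lies on chromosome 6 at 36644305 to 36655116 (hg19), and its assembled bounds were the same in every library. It stood at 36.7 FPKM (34.2 to 39.3) in shDIS3L2 and 15.4 FPKM (13.9 to 16.8) in shHNRNPU, against 7.53 FPKM (6.58 to 8.49) in control. The bounds of the 3 libraries were apart from each other, with shDIS3L2 highest and control lowest. In shDIS3L2 the level was 4.88-fold that of control (4.22 to 5.64), a log2 ratio of 2.14. In shHNRNPU it was 2.04-fold that of control (1.74 to 2.39), a log2 ratio of 0.94, just below the size rule. With a pseudocount of 0.1 CDKN1A was called higher in shHNRNPU too. Between the knockdowns it was called lower in shHNRNPU than in shDIS3L2, at 0.418 of its level (0.372 to 0.471), a log2 ratio of -1.20.

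GADD45A, whose protein binds p21 and PCNA and takes part in arrest at the G2 stage and in repair, is on chromosome 1 at 68150744 to 68154021. Its level was 22.0 FPKM (19.9 to 24.2) in shDIS3L2 and 5.00 FPKM (4.05 to 5.95) in shHNRNPU, against 5.56 FPKM (4.64 to 6.48) in control. Only shDIS3L2 was high, and the bounds of the other two libraries overlapped. The fold was 3.97 in shDIS3L2 (3.28 to 4.81, log2 ratio 1.81) and 0.899 in shHNRNPU (0.699 to 1.16, log2 ratio -0.13). Set directly against shDIS3L2, shHNRNPU had 0.227 of its GADD45A level (0.183 to 0.280, log2 ratio -1.94), which was called lower.

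BTG2, an antiproliferative protein that recruits the CCR4-NOT deadenylase to mRNA, is on chromosome 1 at 203274619 to 203278730. It stood at 6.07 FPKM (5.31 to 6.83) in shDIS3L2 and 8.65 FPKM (7.77 to 9.54) in shHNRNPU, against 1.93 FPKM (1.49 to 2.36) in control. Here both knockdowns were above control, and shHNRNPU was above shDIS3L2. The folds over control were 3.15 in shDIS3L2 (2.43 to 4.08, log2 ratio 1.27) and 4.49 in shHNRNPU (3.50 to 5.76, log2 ratio 1.72). BTG2 in shHNRNPU was 1.42-fold its level in shDIS3L2 (1.21 to 1.67), a log2 ratio of 0.45 that did not reach the size rule. With a pseudocount of 5 BTG2 was called in neither knockdown, at log2 ratios of 0.68 in shDIS3L2 and 0.98 in shHNRNPU. The order of the libraries thus differed between CDKN1A, GADD45A and BTG2.

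**Figure D2:**
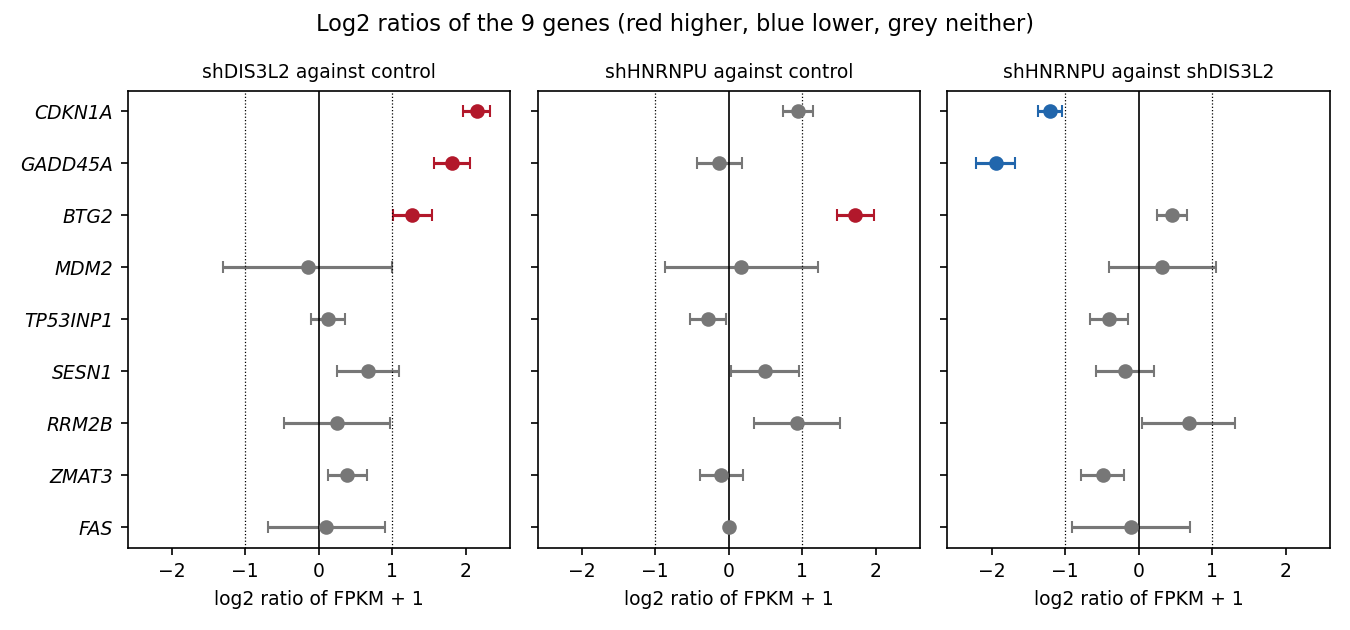
Log2 ratio of FPKM plus 1 (horizontal axis) for each of the 9 genes in shDIS3L2 against control, shHNRNPU against control and shHNRNPU against shDIS3L2. Bars combine the deposited bounds, dotted lines mark 1 and -1, red and blue points were called higher and lower, and grey points neither. CDKN1A and GADD45A are red at 2.14 and 1.81 in the left panel and blue at -1.20 and -1.94 in the right panel.

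Among the feedback genes, MDM2 encodes the ubiquitin ligase that marks p53 for degradation and is itself switched on by p53 from the internal promoter shown above. It was at 3.73 FPKM (1.71 to 5.76) in shDIS3L2 and 4.91 FPKM (3.31 to 6.52) in shHNRNPU, against 4.25 FPKM (0.728 to 7.77) in control. All 3 ranges overlapped, and that of control reached 82.9% of the FPKM to either side, the widest among the 7 members above 1 FPKM. The fold was 0.878 in shDIS3L2 (0.326 to 2.36) and 1.16 in shHNRNPU (0.475 to 2.82), so changes of 2-fold in either direction lie within these ranges. The locus, on chromosome 12 at 69201956 to 69239214, was merged with RP11-611O2.3 and overlaps CPM, which had 1.69 to 2.94 FPKM, so its value is less certain.

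TP53INP1, a nuclear protein that promotes p53 activity and arrest, stood at 2.61 FPKM (2.17 to 3.04) in shDIS3L2 and 1.73 FPKM (1.37 to 2.10) in shHNRNPU, against 2.32 FPKM (1.97 to 2.67) in control. Both knockdowns overlapped with control, and shHNRNPU lay below shDIS3L2. Its log2 ratios against control were 0.12 in shDIS3L2 and -0.28 in shHNRNPU. The gene, on chromosome 8 at 95938200 to 95961639 in shDIS3L2 with slightly different bounds in the other libraries, overlaps NDUFAF6. NDUFAF6 was at 17.1 FPKM in shDIS3L2 and 5.96 FPKM in shHNRNPU and was listed at 0 in control. The libraries are not described as stranded, and the part of NDUFAF6 in the TP53INP1 values was not tested.

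SESN1, a sestrin that restrains the growth kinase mTORC1 and limits oxidative stress, stood at 4.10 FPKM (3.25 to 4.95) in shDIS3L2 and 3.49 FPKM (2.53 to 4.45) in shHNRNPU, against 2.201 FPKM (1.44 to 2.96) in control. The bounds of shDIS3L2 were above those of control, while those of shHNRNPU overlapped with both. Its fold was 1.86 in shDIS3L2 (1.24 to 2.79, log2 ratio 0.67) and 1.59 in shHNRNPU (1.02 to 2.47, log2 ratio 0.49), below the size rule. The gene spans chromosome 6 from 109307640 to 109416022.

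RRM2B encodes the p53-inducible small subunit of ribonucleotide reductase, which supplies deoxynucleotides for DNA repair. It was at 2.599 FPKM (1.27 to 3.93) in shDIS3L2 and 4.76 FPKM (3.44 to 6.09) in shHNRNPU, against 2.04 FPKM (1.02 to 3.05) in control. Only shHNRNPU was apart from control, at 2.34-fold (1.32 to 4.14), and its log2 ratio of 0.92 was just under the size rule. With a pseudocount of 0.1 RRM2B was called higher in shHNRNPU. The locus is on chromosome 8 at 103216730 to 103251346, with a slightly later end in shHNRNPU.

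The same enzyme has an S phase small subunit, RRM2, and a large subunit, RRM1. RRM2, at a locus merged with other names that differ between libraries, stood at 40.5 FPKM in shDIS3L2 and 224 FPKM in shHNRNPU, against 47.7 FPKM in control, and was called higher in shHNRNPU (log2 ratio 2.21). RRM1 stood at 17.7 FPKM in shDIS3L2 and 17.0 FPKM in shHNRNPU, against 30.9 FPKM in control. Its log2 ratios of -0.77 and -0.83 did not reach the size rule, so of the 3 subunits RRM2 alone was called in shHNRNPU.

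ZMAT3, a zinc finger protein that binds RNA and acts in p53-dependent growth suppression, lay under 1 FPKM in every library. It had 0.920 FPKM (0.665 to 1.18) in shDIS3L2 and 0.370 FPKM (0.158 to 0.582) in shHNRNPU, against 0.467 FPKM (0.280 to 0.655) in control. The bounds of shDIS3L2 lay above those of the other two libraries. The fold was 1.97 in shDIS3L2 (1.21 to 3.21), although the pseudocount held its log2 ratio to 0.39. ZMAT3 and FAS are the 2 members whose mean FPKM was under 1, the minimum for the background, and the other 7 were above it.

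FAS, the death receptor through which p53 can sensitise cells to killing, was listed at 0.0730 FPKM (0 to 0.667) in shDIS3L2, and at 0 in both shHNRNPU and control. An exact 0 in these tables can be a failed estimate, and no fold is given. The locus is on chromosome 10 at 90750414 to 90775542 and overlaps ACTA2, which was at most 0.225 FPKM. The components downstream of the receptor were measured. FADD, the adaptor, stood at 20.2 FPKM in shDIS3L2 and 60.8 FPKM in shHNRNPU, against 28.95 FPKM in control, and was called higher in shHNRNPU (log2 ratio 1.04). CFLAR, the inhibitor of caspase-8 at the receptor, at a locus merged with AC007283.5, was called higher in shDIS3L2, at 64.2 FPKM against 21.6 FPKM in control (log2 ratio 1.53). BID, which links caspase-8 to mitochondria, was called lower in shHNRNPU, at 21.9 FPKM against 59.5 FPKM in control (log2 ratio -1.40). Of the 6 partners of FAS at a mean FPKM of at least 1, 1 was higher and 0 lower in shDIS3L2, and 1 was higher and 1 lower in shHNRNPU. Over all loci 8.95% were higher and 7.58% lower in shDIS3L2, and 8.32% and 7.46% in shHNRNPU.

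Since FPKM are per length, levels can be compared between the genes. CDKN1A had the highest FPKM of the 9 in every library, and FAS the lowest. In control the bounds of neighbours in the order GADD45A, MDM2, TP53INP1, SESN1, RRM2B and BTG2 overlapped, so no neighbours in it were told apart, although the bounds of GADD45A lay wholly above those of TP53INP1, SESN1, RRM2B and BTG2. The bounds of CDKN1A in control lay above those of GADD45A but overlapped with the wide ones of MDM2. In shDIS3L2 the bounds of CDKN1A, GADD45A, BTG2 and SESN1 were apart at each step. In shHNRNPU CDKN1A, BTG2 and GADD45A were apart at each step, and GADD45A overlapped with MDM2. Among the 11787 loci with a mean FPKM of at least 1, CDKN1A lay above 74.7% in shDIS3L2 and 56.6% in shHNRNPU, against 42.4% in control. BTG2 lay above 36.2% of the same loci in shDIS3L2 and 43.5% in shHNRNPU, against 15.6% in control.

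**Figure D3:**
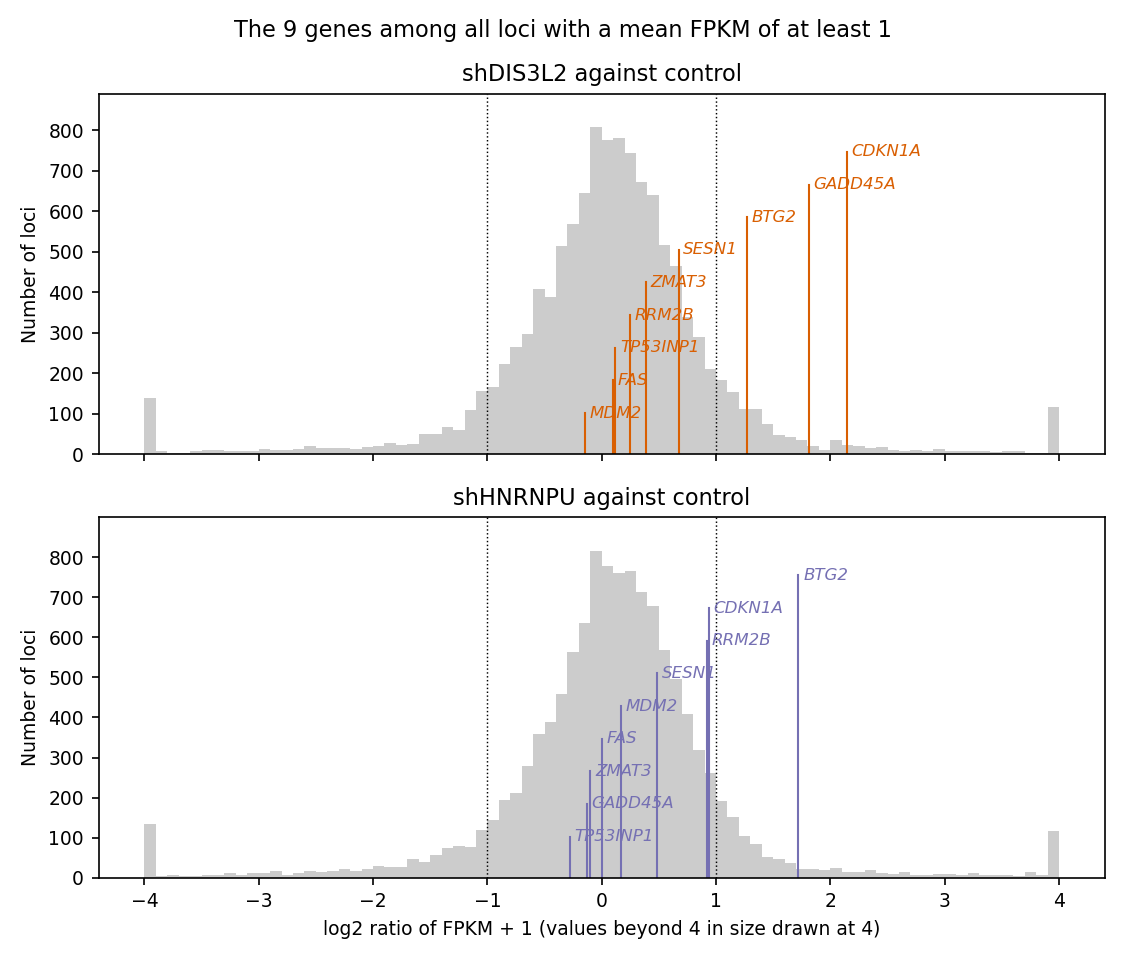
Histograms of the log2 ratio of FPKM plus 1 (horizontal axis) over 11787 loci with a mean FPKM of at least 1 (vertical axis, number of loci), for shDIS3L2 and for shHNRNPU against control. Coloured lines mark the 9 genes, with heights chosen only to keep the names apart, and dotted lines mark 1 and -1. CDKN1A, GADD45A and BTG2 lie right of 1 in the upper panel, and BTG2 alone does in the lower panel.

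By separation of the bounds alone, without a minimum size, 5 of the 9 genes were above control in shDIS3L2 (CDKN1A, GADD45A, BTG2, SESN1 and ZMAT3) and 0 below, where 32.7% of all loci were above and 25.3% below, 58.1% in all. In shHNRNPU 3 of 9 were above control (CDKN1A, BTG2 and RRM2B) and 0 below, near the background of 35.0% above and 23.5% below, 58.4% in all. Between the knockdowns, 2 of 9 were called lower and 0 higher in shHNRNPU against shDIS3L2, where 10.5% of loci were called lower and 10.2% higher, 20.7% in all. By bounds alone, 4 were lower there (CDKN1A, GADD45A, TP53INP1 and ZMAT3) and 1 higher (BTG2), against 28.4% of loci lower and 31.8% higher, 60.2% in all. The median log2 ratio of the 9 in that comparison, again with ZMAT3 and FAS included, was -0.18, beside 0.03 over all loci.

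Other genes that p53 is known to induce were taken from 7 lists by role, 81 genes in all, of which 60 had a mean FPKM of at least 1. In shDIS3L2 10 of these were called higher and 5 lower than control, with a median log2 ratio of 0.30, which is 16.7% higher and 8.33% lower beside 8.95% and 7.58% of all loci. After median-of-ratios rescaling 8 of the 60 were higher and 7 lower in shDIS3L2, beside 7.45% and 8.96% of all loci. In shHNRNPU 4 were higher and 2 lower, with a median of 0.08, which is 6.67% higher and 3.33% lower beside 8.32% and 7.46% of all loci. After rescaling 3 were higher and 6 lower in shHNRNPU, beside 6.21% and 9.45% of all loci. Leaving out the 3 listed at 0 in a library gave 10 higher and 4 lower in shDIS3L2, and 4 higher and 0 lower in shHNRNPU.

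Among other arrest genes, 3 of 6 were called higher in shDIS3L2 and 0 of 6 in shHNRNPU, and none was called lower in either. For this list and each list below, the background is the share of all loci called. It was 8.95% higher and 7.58% lower in shDIS3L2, and 8.32% and 7.46% in shHNRNPU. CCNG1, the p53-induced cyclin G1, stood at 38.0 FPKM in shDIS3L2 and 12.9 FPKM in shHNRNPU, against 13.0 FPKM in control (log2 ratios 1.48 and -0.01). KLF4, a transcription factor that can induce p21, stood at 20.7 FPKM in shDIS3L2 and 1.75 FPKM in shHNRNPU, against 4.27 FPKM in control. Like GADD45A, CCNG1 was high in shDIS3L2 alone. PLK3, a stress-activated polo-like kinase, stood at 6.15 FPKM in shDIS3L2 and 4.74 FPKM in shHNRNPU, against 2.26 FPKM in control, and its log2 ratio of 0.82 in shHNRNPU was below the size rule.

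Of 7 feedback genes, 2 were called higher in shDIS3L2, CCNG1 again and RCHY1, which encodes the p53 ubiquitin ligase PIRH2. RCHY1 was at 13.7 FPKM in shDIS3L2 and 10.8 FPKM in shHNRNPU, against 5.87 FPKM in control (log2 ratios 1.09 and 0.78). PPM1D, the phosphatase WIP1 that switches p53 signalling off, was at 4.504 FPKM in shDIS3L2 and 4.97 FPKM in shHNRNPU, against 4.07 FPKM in control, with overlapping bounds. MDM4, the relative of MDM2 that represses p53, is not among the 7, since its mean of 0.833 FPKM lies under the minimum of 1. It had 1.14 FPKM in shDIS3L2 and 0.518 FPKM in shHNRNPU, against 0.842 FPKM in control, also with overlapping bounds.

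Of 13 apoptosis targets, 3 were called higher and 1 lower in shDIS3L2, and 3 higher and 0 lower in shHNRNPU. BBC3, which encodes the killer protein PUMA, stood at 11.8 FPKM in shDIS3L2 and 15.8 FPKM in shHNRNPU, against 4.67 FPKM in control (log2 ratios 1.17 and 1.57). PMAIP1, which encodes NOXA, stood at 9.67 FPKM in shDIS3L2 and 6.75 FPKM in shHNRNPU, against 2.79 FPKM in control. Both were called higher in both knockdowns. So was TNFRSF10B, the death receptor for TRAIL, at 38.7 FPKM in shDIS3L2 and 45.0 FPKM in shHNRNPU, against 18.5 FPKM in control. TP53I3, a quinone oxidoreductase known as PIG3, was called lower in shDIS3L2, at 48.7 FPKM against 156 FPKM in control (log2 ratio -1.66), and stood at 157 FPKM in shHNRNPU, where its locus was merged with SF3B14. BAX, the pore-forming effector, had log2 ratios of -0.41 in shDIS3L2 and -0.05 in shHNRNPU. Other targets in shHNRNPU had bounds apart from control without reaching the size rule. PERP (log2 ratio -0.88), RPS27L (-0.79) and NINJ1 (-0.63) lay below control, and TNFRSF10A (0.60), APAF1 (0.59) and TRIAP1 (0.58) above it.

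**Figure D4:**
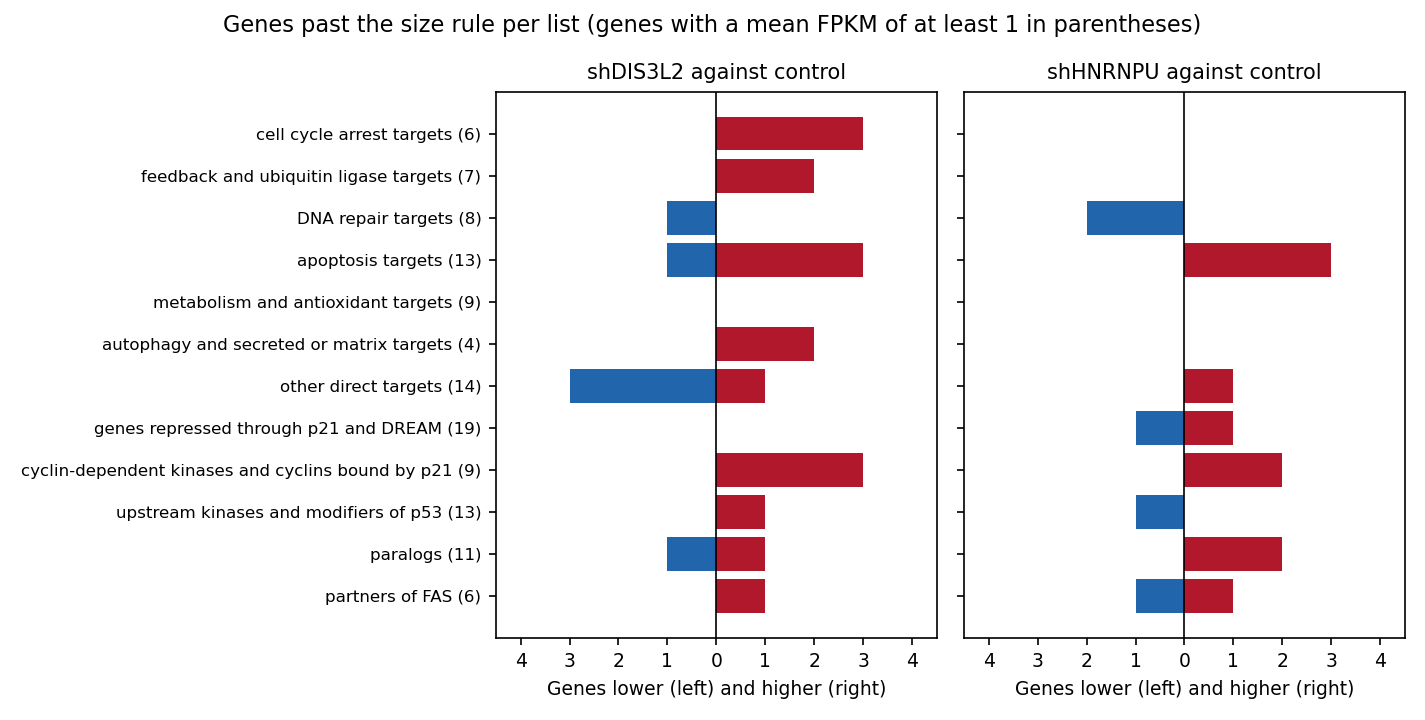
Number of genes called higher (red, right) and lower (blue, left) in shDIS3L2 and in shHNRNPU against control for 12 gene lists; the number in parentheses is the list's genes with a mean FPKM of at least 1. Genes listed at 0 in a library are included, among them all 3 blue DNA repair calls and the red call of CCNE2 in each panel. Arrest targets show 3 red in shDIS3L2 and 0 in shHNRNPU, and apoptosis targets 3 red in each. Over all loci 8.95% were called higher in shDIS3L2 and 8.32% in shHNRNPU.

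Of 8 DNA repair targets 1 was called lower in shDIS3L2 and 2 in shHNRNPU, but XPC was listed at 0 in shDIS3L2 and POLH and REV1 in shHNRNPU, so these are not read as levels. DDB2, a sensor of ultraviolet damage, stood at 35.7 FPKM in shDIS3L2 and 27.1 FPKM in shHNRNPU, against 29.7 FPKM in control. Of 9 metabolic and antioxidant targets 0 were called in either knockdown. SESN2, the sestrin related to SESN1, stood at 25.7 FPKM in shDIS3L2 and 19.0 FPKM in shHNRNPU, against 19.7 FPKM in control.

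Of 4 autophagy and secreted targets 2 were called higher in shDIS3L2 and 0 in shHNRNPU. GDF15, a secreted stress cytokine, stood at 1664 FPKM in shDIS3L2 and 933 FPKM in shHNRNPU, against 605 FPKM in control (log2 ratios 1.46 and 0.62). DRAM1, a lysosomal protein of autophagy, stood at 28.3 FPKM in shDIS3L2 and 11.9 FPKM in shHNRNPU, against 11.9 FPKM in control. The level of DRAM1 was thus high in shDIS3L2 alone. The remaining 14 direct targets held 1 higher and 3 lower in shDIS3L2, and 1 higher and 0 lower in shHNRNPU. PVT1, a long noncoding RNA, was higher in shDIS3L2 (log2 ratio 1.58), and TM7SF3 (-1.58), TP53TG1 (-1.31) and CMBL (-1.14) were lower. The fold ranges were wide for PVT1 (1.45 to 8.39), TP53TG1 (0.169 to 0.892) and TM7SF3 (0.174 to 0.566). That of CMBL was narrower (0.324 to 0.520). In shHNRNPU the log2 ratios against control were 0.78 for PVT1 and -1.63 for TP53TG1, both with overlapping bounds. TM7SF3 (-0.87) and CMBL (-0.42) had bounds below control in shHNRNPU too, but did not reach the size rule there. CYFIP2, a subunit of the WAVE actin regulator, was higher in shHNRNPU (log2 ratio 1.46).

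The genes that p21 silences through the DREAM repressor complex drive DNA replication and mitosis. Of 19 measured, 0 were called in shDIS3L2, where CDKN1A was highest, with a median log2 ratio of -0.21. In shHNRNPU 1 was higher and 1 lower, with a median of 0.07. TOP2A, the topoisomerase of mitotic chromosomes, was the higher one (log2 ratio 1.75). CDC20, an activator of the anaphase-promoting complex, stood at 120 FPKM in shDIS3L2 and 207 FPKM in shHNRNPU, against 198 FPKM in control. CCNB1, the mitotic cyclin B1, stood at 166 FPKM in shDIS3L2 and 257 FPKM in shHNRNPU, against 149 FPKM in control.

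The kinases and cyclins that p21 binds included 3 of 9 called higher in shDIS3L2 and 2 of 9 in shHNRNPU. Without CCNE2, which was listed at 0 in control, 2 were higher in shDIS3L2 and 1 in shHNRNPU. Over all loci 8.95% were higher in shDIS3L2 and 8.32% in shHNRNPU, so the latter count is near the background. CDK6, a G1 kinase, stood at 5.24 FPKM in shDIS3L2 and 4.88 FPKM in shHNRNPU, against 1.38 FPKM in control, and was called in both. CCND1, cyclin D1, was called higher in shDIS3L2, at 95.4 FPKM against 37.8 FPKM in control (log2 ratio 1.31). CCNE2 was called in both, but with its 0 in control these calls are not read as levels, and no fold is given. The inhibitor CDKN1B, which encodes the relative of p21 known as p27, had log2 ratios of 0.73 in shDIS3L2 and 0.83 in shHNRNPU.

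Upstream of p53, 1 of 13 kinases and modifiers was called higher in shDIS3L2 and 1 lower in shHNRNPU. These counts are near the shares of all loci, 8.95% higher in shDIS3L2 and 7.46% lower in shHNRNPU. ATR, the kinase of replication stress, stood at 7.69 FPKM in shDIS3L2 and 2.10 FPKM in shHNRNPU, against 1.96 FPKM in control. CHEK2, a kinase that phosphorylates p53 after DNA breaks, stood at 62.2 FPKM in shDIS3L2 and 20.3 FPKM in shHNRNPU, against 54.0 FPKM in control. The log2 ratio of ATR was 1.56 in shDIS3L2, and that of CHEK2 was -1.37 in shHNRNPU.

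Paralogs of the members were measured as well. GADD45B, a stress sensor like GADD45A, stood at 136 FPKM in shDIS3L2 and 279 FPKM in shHNRNPU, against 183 FPKM in control, and was called in neither knockdown. BTG3 was called lower in shDIS3L2 (7.03 FPKM against 16.1 FPKM in control, log2 ratio -1.09), where BTG2 was called higher. BTG1, merged with C12orf79, stood at 65.3 FPKM in shDIS3L2 and 57.4 FPKM in shHNRNPU, against 53.9 FPKM in control, and was not called either. Of 11 paralogs measured, 1 was called higher and 1 lower in shDIS3L2, and 2 were higher and 0 lower in shHNRNPU. The shares of all loci were 8.95% higher and 7.58% lower in shDIS3L2, and 8.32% and 7.46% in shHNRNPU.

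The genes whose pair of log2 ratios against control lay nearest to that of CDKN1A were HIST1H2BJ, C3orf52 and NOL8, among 6405 genes with a mean FPKM of at least 5 and a locus of their own. Their distances on the log2 scale were 0.05, 0.10 and 0.10. HIST1H2BJ, a histone H2B gene, stood at 27.6 FPKM in shDIS3L2 and 11.6 FPKM in shHNRNPU, against 5.35 FPKM in control. This likeness rests on 3 libraries.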

How the data were processed

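RNA was sequenced from 1 library per group (shDIS3L2, shHNRNPU and control). The authors deposited FPKM per gene with bounds and a status, per the file headers. Per the submitters' processing notes, TopHat2 2.0.12 and Cufflinks 2.2.1 were used with build hg19. Nothing in the labels calls the libraries stranded. Identifiers in the deposited tables show genes assembled per library, so overlapping genes can share 1 locus. The level of the bounds is not stated, and 95% is the Cufflinks default. No counts are in the tables, and only 34.5% to 37.4% of low estimates (up to 20 fragments) came out whole within 0.02, so no test on counts was run. Depth was estimated from single-exon genes of at least 2000 bases (GENCODE release 29). The deposited bounds reached a median of 11.8% of the FPKM to either side in shDIS3L2, 11.4% in shHNRNPU and 10.7% in control. The control table held 0 mitochondrial rows, against 11 in shDIS3L2 and 10 in shHNRNPU, and what this did to the scaling was not tested.

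Using Python 3.11.15, pandas 2.3.3 and NumPy 2.4.6, names were split at commas and matched across libraries, taking the locus with the highest mean FPKM where a name had several. Ratios are log2 of FPKM plus a pseudocount of 1. The background counts each locus once, at a mean FPKM of at least 1. Lists are described by counts and medians, with no test. Alternatives were pseudocounts of 0.1 and 5, median-of-ratios rescaling, a ratio of 0.5, separate bounds alone, summed loci, other filters, and leaving out genes listed at 0. Apart from the 9 genes and the targeted genes, the text names up to 4 genes per list past the rule, by size of ratio, paralogs, the 3 genes nearest to CDKN1A, and further list members, chosen after their values were seen, as examples of genes not called. The members and lists were chosen with earlier results of these data known. The p53 gene itself is not reported here.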

Additional observations from a re-analysis of the deposited data

How the results depend on the processing

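No paired analysis was possible because each group is 1 library, and no replicate could be left out. Among recomputed ratios of single members, 131 moved by less than their bounds, 13 moved by more, and 0 changed sign. A changed filter cannot alter a ratio, and summing loci altered none, so many of the 131 are the main values again. All 13 came with a changed pseudocount. The median of the members in shDIS3L2 against control was 0.85 with a pseudocount of 0.1, 0.11 with 5, and 1.81 when the filter asked for a mean FPKM of 5. In shHNRNPU against control it was 0.94 with that filter. In shHNRNPU against shDIS3L2 it was -0.56 with a pseudocount of 0.1 and -1.20 at the filter. The filter keeps only CDKN1A, GADD45A and BTG2, the same members that were called higher in shDIS3L2. BTG2, at 1.93 FPKM in control, passes through its levels in the knockdowns. The medians at the filter thus follow from this selection and say nothing of the members as a set. With separate bounds alone, 5 members were higher in shDIS3L2 and 3 in shHNRNPU against control, and 1 was higher and 4 lower in shHNRNPU against shDIS3L2. Members higher in shHNRNPU against control were 3 with a pseudocount of 0.1, 0 with 5 and 3 with a ratio of at least 0.5, where 11.2%, 4.004% and 23.0% of all loci were higher.

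Counts among the 60 other p53 targets changed more, and the share of all loci called changed too. The filter of 5 and leaving out genes listed at 0 keep fewer targets. In shDIS3L2 against control 4 were higher with a pseudocount of 5, beside 4.70% of all loci. With a ratio of at least 0.5, 16 were higher and 9 lower, beside 21.9% and 17.3% of loci. By bounds alone 31 were higher and 14 lower, beside 32.7% and 25.3%. In shHNRNPU against control 20 were higher and 12 lower with a ratio of at least 0.5, beside 23.0% and 15.8% of loci. By bounds alone 23 were higher and 14 lower in that comparison, beside 35.0% and 23.5%. There 6 were lower after rescaling, beside 9.45% of loci. With a pseudocount of 5 (4.60% of loci) or the filter of 5 (7.79%), 0 were lower. Without genes listed at 0, an alternative chosen after seeing the data, 0 were lower too. In shHNRNPU against shDIS3L2 2 were higher and 4 lower with a pseudocount of 5, beside 5.31% and 6.15% of loci. With a ratio of at least 0.5, 12 were higher and 14 lower, beside 23.0% and 20.8%. By bounds alone 19 were higher and 24 lower, beside 31.8% and 28.4%. At the filter of 5, 5 were lower, beside 11.3%. Beyond what each alternative's construction sets, the cause was not tested. Bounds limit MDM2, RRM2B, ZMAT3 and FAS most.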
